A study of Mus musculus with 9 samples.

Results

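Complement components and receptors were examined as 9 genes of the deposited count table: C1qa, C1qb and C1qc, which encode the chains of the recognition molecule C1q; C3 and C4b, which encode the central components; Cfb and Cfd, which encode the enzymes of the alternative pathway; and C3ar1 and C5ar1, which encode the receptors for the fragments C3a and C5a. They were taken by gene symbol from a table of 27179 genes, each symbol matched 1 row, and all 9 passed the filter on low counts. The counts came from poly(A) RNA of whole mandibles with their teeth, from male mice on a C57BL/6 background that were 6 months old. There were 5 WT mice and 4 mice labelled FcγRIIB-/-, called the labelled mice below, a germline knockout of the inhibitory Fc gamma receptor that serves as a model of lupus, and no treatment was listed. A mandible holds bone, tooth, marrow, muscle and oral epithelium, so each value is an average over all of these. The study describes control males as littermates in its blood analysis, the labels do not give the relation of the mice sequenced, and the p-values measure the spread between these mice.

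Complement is a cascade of plasma proteins that marks immune complexes, microbes and dying cells for removal. The classical pathway starts when C1q binds antibody in a complex and activates the proteases C1r and C1s, which cleave C4 and C2. The lectin pathway starts from ficolins and collectins, and the alternative pathway amplifies C3 cleavage through factor B and factor D. All routes meet at C3, whose fragments coat targets and act on receptors of myeloid cells. Liver makes most of the plasma pool, whereas C1q is made mainly by macrophages and related cells. In lupus the classical pathway is consumed by immune complexes, and inherited lack of C1q or C4 predisposes to the disease.

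The stretches upstream of C3, the member with the clearest difference, and of C1qb and C1qc, neighbours on chromosome 4 whose levels moved together, are shown first. They are the 250 bases before the RefSeq start in GRCm38.p6, the assembly of mm10, which for C1qc lies slightly inside the outer end of the gene, and RefSeq promoters were matched for C1qb, C1qc, C3, Cfd, C3ar1 and C5ar1, 6 of the 9 genes. Each reads 5′ to 3′ on the minus strand, the strand of all 3 genes, at chr17:57228137-57228386 for C3, chr4:136886201-136886450 for C1qb and chr4:136892915-136893164 for C1qc. Capitals mark matches, on either strand, to 3 short motifs, and overlapping matches run together. The motif of the type bound by PU.1, an ETS factor, was searched as GAGGAA, and sites of other ETS factors were not searched. The motif of the type bound by C/EBP factors was searched as TTNNGNAA, where N is any base. The box that positions the polymerase at many starts was searched as TATAAA.
C3: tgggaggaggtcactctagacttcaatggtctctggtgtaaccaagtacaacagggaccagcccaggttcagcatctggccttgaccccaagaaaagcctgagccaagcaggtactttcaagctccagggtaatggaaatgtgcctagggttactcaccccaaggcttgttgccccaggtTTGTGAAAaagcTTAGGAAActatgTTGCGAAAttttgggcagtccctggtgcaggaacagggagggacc
C1qb: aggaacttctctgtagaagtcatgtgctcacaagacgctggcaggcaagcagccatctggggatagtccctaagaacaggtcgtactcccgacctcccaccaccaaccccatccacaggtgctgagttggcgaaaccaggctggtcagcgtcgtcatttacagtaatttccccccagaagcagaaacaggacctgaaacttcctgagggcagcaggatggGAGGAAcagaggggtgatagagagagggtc
C1qc: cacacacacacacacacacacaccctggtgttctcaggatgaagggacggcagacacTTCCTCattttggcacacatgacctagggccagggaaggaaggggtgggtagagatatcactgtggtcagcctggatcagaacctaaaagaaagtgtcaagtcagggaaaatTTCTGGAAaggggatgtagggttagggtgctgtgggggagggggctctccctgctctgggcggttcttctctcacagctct
The C3 stretch held the C/EBP-type motif at 3 separate places, which began 70, 58 and 45 bases before the gene start. This motif was present at least once in 36.8% of 32851 RefSeq promoters of the same length, and promoters with 3 places were not counted. C1qc held 1 such match, and C1qb had no match to it. The C1qb and C1qc stretches each held GAGGAA once, 30 and 193 bases before the start and on opposite strands, and 23.3% of promoters hold it. None of the 3 stretches held TATAAA, which is in 12.4% of promoters. These matches describe the letters only.

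Totals lay between 21453880 and 28991631 counts per library. The targeted gene, Fcgr2b (chromosome 1 of mm10, 170960558 to 170976071), was at 17.0 to 38.3 CPM in WT and 26 to 32.1 CPM in the labelled mice (log2 fold change 0.21, SE 0.20, adjusted p = 0.442). Without WT replicate 2 its log2 fold change was 0.46 (adjusted p = 0.0131), so that in neither case was it lower in the labelled mice, and groups are therefore named by their labels. Reads from gene parts outside a deletion still count, and which part is deleted was not examined. CPM is the count per 1e+06 after the library size is scaled by TMM. Defining genes of the labelled tissue were present in every library, among them Dspp of dentine at 2645 CPM or more and Sp7 of osteoblasts at 103 CPM or more. All adjusted p-values come from the quasi-likelihood test of edgeR with Benjamini-Hochberg adjustment over the 16329 genes tested, of which 2289 were higher and 3144 lower in the labelled mice at an adjusted p under 0.05, or 33.3%. With library totals alone in place of TMM the split was 1309 higher and 3781 lower.

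Against this background, 1 of the 9 complement genes passed. C3 was lower in the labelled mice, none was higher, and 8 did not pass, a share of 11.1% of the 9 against 33.3% of all genes. Over all genes 14% were called as higher and 19.3% as lower. The median log2 fold change of the 9 was -0.03, and that of all genes tested was 0.01. In none of the 9 were the groups fully apart, whereas in 29.6% of all genes tested the groups did not overlap in log2 CPM. DESeq2's Wald test also called 1 of the 9 as lower, against 19.7% of its genes called as lower and 37% in either direction.

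**Figure D1:**
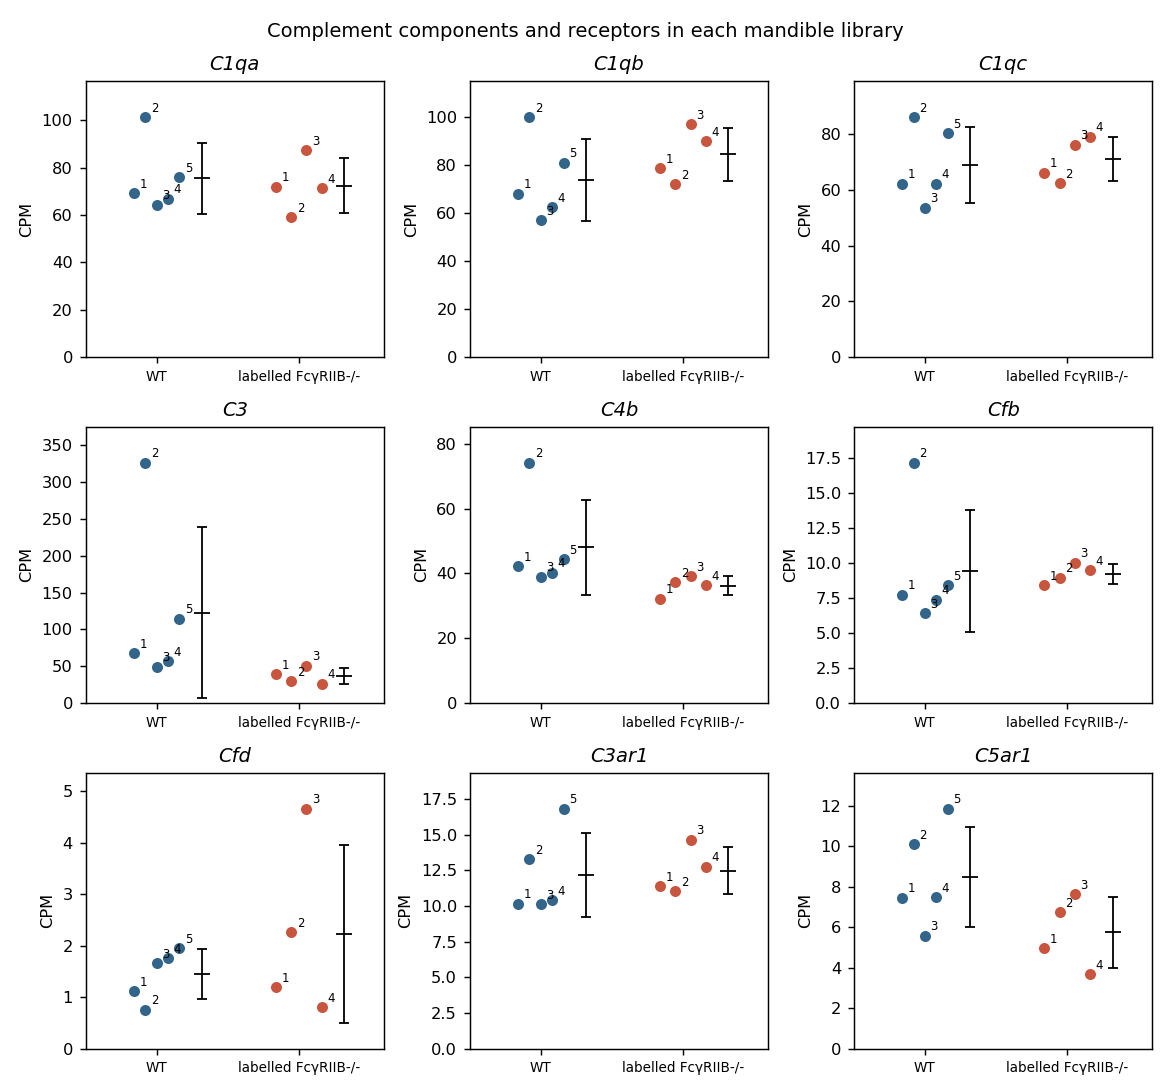
Levels of the 9 complement genes in CPM (vertical axes, linear, from 0), 1 panel a gene, with WT in blue and libraries labelled FcγRIIB-/- in red; each point is 1 mouse with its replicate number, and the bar beside each group is the mean with the SD (n = 5 and n = 4). C3 reaches 326 CPM in WT replicate 2 and lies between 26.1 and 50.8 CPM in the labelled mice, and the groups overlap in every panel.

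The C1q genes lie side by side on chromosome 4 of mm10: C1qb from 136880126 to 136886200, C1qc from 136889801 to 136892936 and C1qa from 136895916 to 136898844. Their levels did not separate the groups. C1qa was at 69.1, 101, 64.4, 66.8 and 75.9 CPM in WT replicates 1 to 5 and 72.0, 59.1, 87.3 and 71.4 CPM in labelled replicates 1 to 4. WT replicate 2 was the highest mouse and labelled replicate 2 the lowest, with the rest mixed between the groups. The log2 fold change of C1qa was -0.06 (standard error, SE, 0.14, 95% interval -0.38 to 0.26, adjusted p = 0.780), and it was 0.09 without WT replicate 2 and 0.03 without labelled replicate 2.

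C1qb, the B chain, was at 68.1, 99.96, 57.0, 62.4 and 81.0 CPM in WT and at 78.7, 72.0, 97.1 and 89.9 CPM in the labelled mice. All 4 of the latter lay above 3 of the WT mice and below WT replicate 2. Its log2 fold change was 0.20 (SE 0.16, 95% interval -0.15 to 0.54, adjusted p = 0.358), and without WT replicate 2 it was 0.34 (adjusted p = 0.0631). C1qc, the C chain, ranged from 53.6 to 86.2 CPM in WT and from 62.4 to 79.1 CPM in the labelled mice, with a log2 fold change of 0.04 (SE 0.14, 95% interval -0.26 to 0.35, adjusted p = 0.832).

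The balance between the C1q chains was described as the share of each gene in their summed CPM, with no test. C1qa took 34.7% ± 1.74 in WT (SD, n = 5) and 31.7% ± 1.89 in the labelled mice (SD, n = 4). C1qb took 33.6% ± 1.01 (SD, n = 5) in WT, where it lay between 32.6% and 34.8%, and 37.0% ± 0.507 (SD, n = 4) in the labelled mice, where it lay between 36.3% and 37.4%. The C1qb shares of the groups were therefore apart, while those of C1qa and C1qc overlapped. C1qc took 31.6% ± 1.56 (SD, n = 5) and 31.3% ± 1.65 (SD, n = 4).

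Macrophage markers moved differently from C1q in the same libraries. Of 10 markers, 9 were tested and 6 were lower in the labelled mice: Csf1r, the receptor for the macrophage growth factor (log2 fold change -0.86, adjusted p = 0.00105), the mannose receptor Mrc1 (-0.93), Siglec1 (-1.03), Vcam1 (-0.72), Cd68 (-0.63) and Adgre1 (-0.60). The calls of Adgre1, without labelled replicate 2 or 4, and of Cd68, without labelled replicate 1 or 3, rose to adjusted p between 0.0511 and 0.0551. Cd163 (-0.64), Timd4 (-0.75) and Mertk (0.08), a receptor for the uptake of dying cells, did not pass, and Marco was too low to test. Over all genes tested 19.3% were called as lower. The summed marker level was between 318 and 468 CPM in WT and between 229 and 252 CPM in the labelled mice. In the same order the summed C1q level was between 175 and 287 CPM and between 193 and 261 CPM. The ratio of C1q to the markers averaged 0.581 ± 0.0653 over the WT mice (SD, n = 5) and 0.948 ± 0.111 over the labelled mice (SD, n = 4), and every labelled mouse, at 0.833 or more, was above every WT mouse, at 0.675 or less. The ratio combines genes chosen with results known and was given no test. In bulk RNA, fewer cells of a type and less RNA per cell cannot be told apart.

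**Figure D2:**
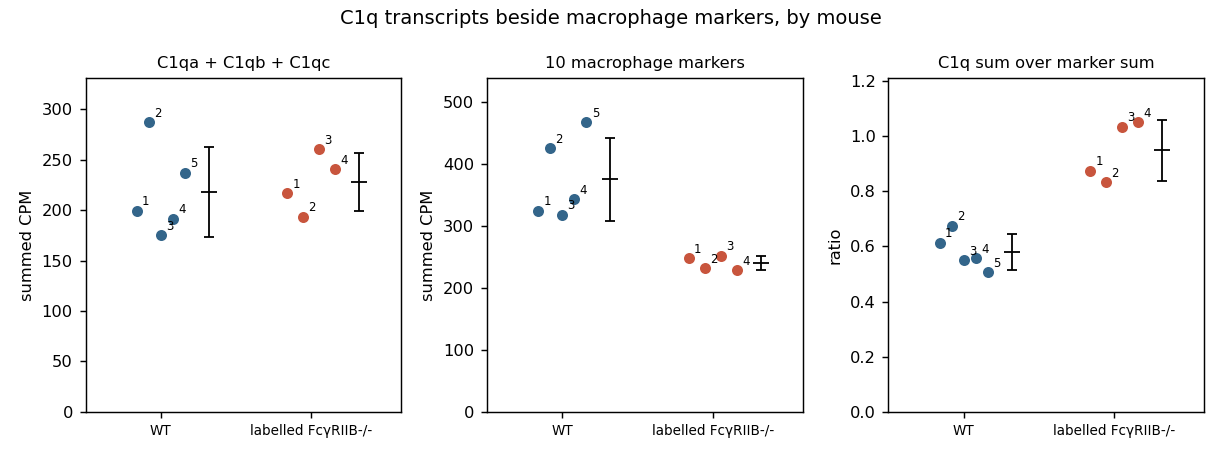
Summed CPM of C1qa, C1qb and C1qc (left), summed CPM of 10 macrophage markers (middle) and their ratio (right), each point 1 mouse with its replicate number, WT in blue and libraries labelled FcγRIIB-/- in red, bars the mean with the SD (n = 5 and n = 4). The C1q sums overlap between the groups, the marker sums are 318 CPM or more in WT and 252 CPM or less in the labelled mice, and the ratios are apart.

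C3 (chromosome 17, 57203967 to 57228136) was at 67.5, 326, 49.2, 56.9 and 115 CPM in WT replicates 1 to 5, which rested on 1275 to 8127 counts. In the libraries labelled FcγRIIB-/- it was at 38.9, 29.9, 50.8 and 26.1 CPM, on 515 to 1200 counts. WT replicate 2 was 2.85 times the next WT mouse, and labelled replicate 3 was slightly above WT replicate 3, the only crossing between the groups. The log2 fold change was -1.75 (SE 0.54, adjusted p = 0.0310). Without WT replicate 2 the WT mean fell from 123 to 72.0 CPM and the log2 fold change was -0.97 (adjusted p = 0.0270), so the call held at a smaller size. Without labelled replicate 1, 2 or 4 the log2 fold change was -1.78, -1.67 or -1.62, and the adjusted p rose to 0.0653, 0.0763 and 0.0816.

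Markers of lymphocytes were also high in WT replicate 2. Its summed level of 5 T cell markers was 39.6 CPM, against 6.98 to 15.1 CPM in the other 4 WT mice and 4.62 to 7.70 CPM in the labelled mice. The summed level of 5 B cell markers was 87.1 CPM there, against 24.7 to 37.5 CPM in the other WT mice and 3.70 to 17.1 CPM in the labelled mice. None of the defining T cell and B cell markers was at 0 in WT, whereas Ms4a1 was at 0 in labelled replicate 2. Of these markers 4 B cell genes and 1 T cell gene, Cd4, were lower in the labelled mice, against 19.3% of all genes tested. Hepatocyte markers, which stand for the main source of plasma C3, summed to between 0.154 and 0.635 CPM over the 9 mice, and Fgb and Serpina1a were at 0 in all of them. The part of lymphoid cells in the C3 level was not tested, and the value without WT replicate 2 shows only the weight of that mouse.

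C4b (chromosome 17, 34728139 to 34743902), the C4 gene of the classical pathway, was at 42.2, 74.2, 39.0, 40.3 and 44.4 CPM in WT and at 32.2, 37.3, 39.2 and 36.3 CPM in the labelled mice. Apart from WT replicate 2, the mice of both groups lay within a narrow band, and labelled replicate 3 was above WT replicate 3. The log2 fold change of -0.41 (SE 0.18, adjusted p = 0.104) did not pass, and without WT replicate 2 it was -0.18 (adjusted p = 0.124). C4b shares most of its sequence with its neighbour C4a, which had 0.586 to 1.67 CPM, so that the split of reads between them is uncertain. C2, which encodes the protease that pairs with C4, had a mean of 33.4 ± 2.09 CPM in the WT mice (SD, n = 5), and the labelled mice had 33.3 ± 3.87 CPM (SD, n = 4).

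Of the genes for C1r, C1s and the C1 inhibitor, C1ra, C1s1 and Serping1 were lower, whereas C1s2 and C2 did not pass. C1s1, which encodes C1s, fell from 264 ± 42.9 CPM (SD, n = 5) to 165 ± 13.4 CPM (SD, n = 4), a log2 fold change of -0.68 (SE 0.12, adjusted p = 0.00231). C1ra, which encodes C1r, had a log2 fold change of -0.53 (adjusted p = 0.0157). Serping1, the C1 inhibitor, had a log2 fold change of -0.64 (adjusted p = 0.0159). In each of these 3 genes every WT mouse was above every labelled mouse, and each passed with any single mouse left out. Over all genes tested 19.3% were called as lower, and in 17.5% every WT mouse was above every labelled mouse. Serping1 did not pass when the replicate number was added to the model. C1ra, C1rb, C1s1 and C1s2 are pairs of similar genes, and C1s2 (0.462 to 1.16 CPM) and C1rb (16 counts at most) were low. Fibroblast markers, of which Pdgfra, Dcn and Col3a1 were lower and 4 of 7 did not pass, summed to between 15039.5 and 22045 CPM in WT and between 7542 and 10781 CPM in the labelled mice. Col3a1 made up 68.0% to 82.1% of that sum, and the other 6 markers summed to between 3031 and 3939 CPM in WT and between 2411 and 2963 CPM in the labelled mice. The part of fibroblasts in these falls was not tested.

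Cfb (chromosome 17, 34856374 to 34862514), the protease subunit of the alternative C3 convertase, was at 7.75, 17.2, 6.44, 7.38 and 8.43 CPM in WT and at 8.41, 8.97, 10.04 and 9.48 CPM in the labelled mice. WT replicate 2 was the highest mouse, and the labelled mice were otherwise at or above the remaining WT mice, except that WT replicate 5 was just above labelled replicate 1. The log2 fold change was -0.03 (SE 0.26, 95% interval -0.61 to 0.54, adjusted p = 0.935), and it turned to 0.31 (adjusted p = 0.0840) without WT replicate 2. Without labelled replicate 1 it was 0.01, so the sign of Cfb was not fixed by these mice and no value passed.

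Cfd (chromosome 10, 79890853 to 79892655), or adipsin, the fat-cell protease that activates factor B, was the lowest member. It had 19 to 50 counts in WT and 16 to 110 in the labelled mice. In CPM this was 1.12, 0.762, 1.66, 1.76 and 1.95 in WT and 1.19, 2.26, 4.66 and 0.811 in the labelled mice. Labelled replicate 3 stood highest and labelled replicate 2 was also above all WT mice, while the other 2 labelled mice lay inside the WT range. The log2 fold change of 0.62 (SE 0.47, adjusted p = 0.328) did not pass, and it was -0.03 without labelled replicate 3. Of 8 adipocyte markers 5 were tested: Fabp4 and Lpl were higher and Adipoq was lower, at 2.51 to 5.78 CPM in WT and 0.946 to 1.57 CPM in the labelled mice. Plin1, Lep and Retn were under 1 CPM in every library. The summed adipocyte level was 230 to 340 CPM in WT and 442 to 577 CPM in the labelled mice, but Lpl and Fabp4 made up 96.3% or more of it in each mouse. Without them the other 6 markers summed to 7.17 to 11.4 CPM in WT and 5.43 to 7.40 CPM in the labelled mice. The part of fat cells in Cfd was not tested. Cfp, or properdin, the stabilizer of the convertase, was at 17.4 to 32.5 CPM in WT and 17.6 to 27.6 CPM in the labelled mice (log2 fold change -0.14, adjusted p = 0.592).

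Of the anaphylatoxin receptors, neither C3ar1 nor C5ar1 passed, and differences between the receptors were not tested. C3ar1 (chromosome 6, 122847140 to 122856157) was at 10.2, 13.3, 10.1, 10.4 and 16.8 CPM in WT and at 11.4, 11.04, 14.7 and 12.8 CPM in the labelled mice. All labelled mice lay inside the WT range, and the log2 fold change was 0.03 (SE 0.17, 95% interval -0.33 to 0.40, adjusted p = 0.889). C5ar1 (chromosome 7, 16246743 to 16259540) was at 7.46, 10.1, 5.59, 7.49 and 11.9 CPM in WT and at 4.98, 6.75, 7.63 and 3.70 CPM in the labelled mice. Labelled replicates 1 and 4 were below all WT mice and the other 2 were among them. The log2 fold change of -0.56 (SE 0.25, 95% interval -1.12 to 0.00, adjusted p = 0.115) did not pass. C5ar2, the second C5a receptor and not a member, fell by 1.06 on the log2 scale (SE 0.20, adjusted p = 0.00365), with 2.78 to 3.94 CPM in WT and 1.11 to 2.03 CPM in the labelled mice.

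Beyond the 9 genes, a list of 53 textbook complement genes that includes them had 40 tested genes, of which 4 were higher and 12 lower, or 40% against 33.3% of all genes. Its median log2 fold change was -0.14, against 0.01 over all genes tested. Without WT replicate 2 there were 3 higher and 11 lower. The 13 genes that were too low to test, among them Mbl1, Mbl2, Hc, which encodes C5, C6, C8a, C8b, C9, C4bp and Cfi, had at most 16 counts in any library. Of the terminal pathway, C7 and C8g were tested and neither passed.

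In the lectin pathway 3 of 5 tested genes were lower, and over all genes tested 19.3% were. Fcnb, a ficolin of granulocytes, had the largest change of the whole list, from 11.2 ± 5.17 CPM (SD, n = 5) in WT to 0.539 ± 0.651 CPM (SD, n = 4), with 2 to 43 counts in the labelled mice and a log2 fold change of -4.27 (SE 0.60, adjusted p = 9.55e-04). Fcna, a ficolin of macrophages, had a log2 fold change of -2.0 (adjusted p = 0.00613), and Masp1, a protease of the pathway, one of -1.08 (adjusted p = 0.0105). The receptors Itgam and Itgb2, the chains of complement receptor type 3, fell together by 1.30 and 1.26 on the log2 scale (adjusted p = 0.00656 and 0.00607), and Itgax (-0.16), Vsig4 (-0.25) and Cr2 did not pass. Cr2, a receptor of B cells, was at 8.03 CPM in WT replicate 2 and at 0.664 CPM or less in each of the other 8 mice (adjusted p = 0.0588). Neutrophil markers were lower in 10 of 10 genes, with Ly6g at 0 in labelled replicate 2, and their sum was 1134 to 3452 CPM in WT and 140 to 417 CPM in the labelled mice. Monocyte markers were lower in 3 of 5, and their sums, 849 to 1367 and 563 to 914 CPM, overlapped. Fn1, which is not specific to monocytes and did not pass, made up 83.2% to 94.4% of that sum in each mouse, and without it the other 4 markers summed to 87.0 to 181 CPM in WT and 45.1 to 61.2 CPM in the labelled mice, with the groups apart. The part of these cells in Fcnb, Fcna, Itgam and Itgb2 was not tested.

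Regulators moved in both directions. On the cell surface, Cd59a, which blocks the membrane attack complex, rose from 58.8 ± 3.54 CPM (SD, n = 5) to 113 ± 25.2 CPM (SD, n = 4), a log2 fold change of 0.94 (SE 0.13, adjusted p = 7.30e-04). Cd55, which speeds the decay of C3 convertases, rose by 0.71 on the log2 scale (adjusted p = 0.00910), and Susd4 had a log2 fold change of 0.65 (adjusted p = 0.0430). Csmd1 fell by 0.76 (adjusted p = 0.0172), and Cd46, Cd59b and Cr1l did not pass. Among soluble regulators, clusterin (Clu) rose from 1345 ± 350 CPM (SD, n = 5) to 2297 ± 208 CPM (SD, n = 4), with a log2 fold change of 0.77 (adjusted p = 0.0105). Vtn did not pass. The groups did not overlap in Cd59a, Cd55, Csmd1 and Clu, and they did not overlap in 29.6% of all genes tested. The call of Susd4 was weaker: without labelled replicate 1, 2 or 4 or WT replicate 2 or 5 its adjusted p rose above 0.05, to 0.129 at most. Of 6 tooth markers 4 were higher in the labelled mice, namely the enamel-organ genes Ambn, Enam, Odam and Amelx (log2 fold change 1.34), and Dspp and Amtn did not pass. Of 6 muscle markers 3 were higher, Ckm, Mylpf (1.10) and Tnnt3, and Acta1, Myh4 and Myh1 did not pass. Over all genes tested 14% were called as higher. Of the marker lists, tooth genes summed to 12022 to 31062 CPM in WT and 34117 to 57122 CPM in the labelled mice, and muscle genes to 5862 to 13531 and 13772 to 23715 CPM. Amelx and Ambn had the highest means of the tooth genes, 7275 and 6997 CPM in WT and 18474 and 15356 CPM in the labelled mice. The part of tooth and muscle in the regulators was not tested.

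**Figure D3:**
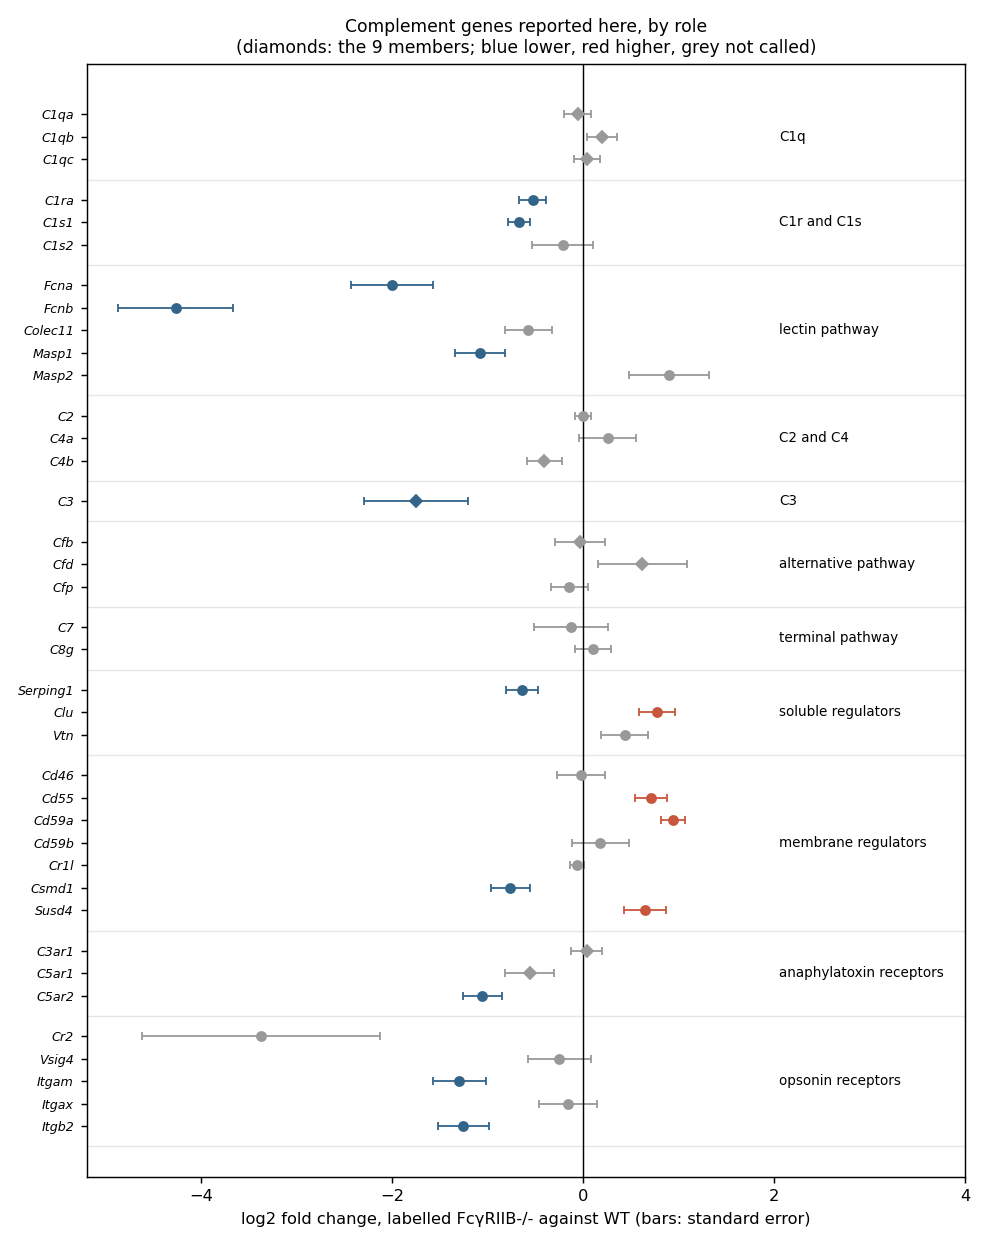
log2 fold change of the tested complement genes reported here in the labelled mice against WT (horizontal axis), grouped by role, with the standard error (SE) as bars; diamonds are the 9 members and circles the other genes, blue is lower and red higher at an adjusted p under 0.05, grey did not pass. C3 is the only coloured diamond, Fcnb lies farthest left at -4.27, and the red points are Clu, Cd55, Cd59a and Susd4.

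Per length, as CPM per kilobase of exon in GENCODE M21, the order of the 9 genes in WT was C1qa at 72.6 ± 14.5, C1qb at 67.7 ± 15.8, C1qc at 35.7 ± 7.10, C3 at 23.9 ± 22.6, C4b at 8.43 ± 2.59, Cfb at 3.34 ± 1.55, C5ar1 at 3.31 ± 0.963, C3ar1 at 2.83 ± 0.678 and Cfd at 1.57 ± 0.535 (SD, n = 5). The ranges of neighbours in this order overlapped, except that every C1qb value, at 52.4 or more, was above every C1qc value, at 44.6 or less, every C4b value, at 6.85 or more, was above every Cfb value, at 6.08 or less, and every C3ar1 value, at 2.36 or more, was above every Cfd value, at 2.12 or less. In the libraries labelled FcγRIIB-/-, C1qb came first at 77.6 ± 10.3 and C1qa followed at 69.7 ± 11.1, which overlapped. C3, at 7.08 ± 2.14, was there level with C4b, at 6.36 ± 0.524 (SD, n = 4). Lengths were unions over all annotated exons, 1088 bases for C1qb and 1931 for C1qc. Before division their WT means were 73.7 and 68.9 CPM, so the gap between C1qb and C1qc comes mostly from the lengths used. Which isoforms were expressed was not examined.

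WT replicate 2 was the highest of the 9 mice in 6 of the 9 genes, C1qa, C1qb, C1qc, C3, C4b and Cfb, and in 14.1% of all genes tested. It was the lowest mouse for Cfd. WT replicate 5 was highest for C3ar1 and C5ar1, and labelled replicate 3 for Cfd. With the genotype means removed, log2 CPM of C4b and Cfb followed each other closely over the 9 mice (Pearson r = 0.986, Spearman rho = 0.967, and r = 0.936 without the 2 mice farthest from the median in C4b), and C1qb and C1qc did too (r = 0.958, rho = 0.90, and r = 0.975 without 2 mice). C3 and C4b had r = 0.90 and rho = 0.817 over 9 mice. Their r was 0.651 without WT replicate 2 and 0.443 without the 2 mice farthest from the median in C3. The size of r therefore depended on those mice. Cfd had r between -0.32 and 0.52 with the other members. The points share libraries and depth, and these values are descriptions.

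**Figure D4:**
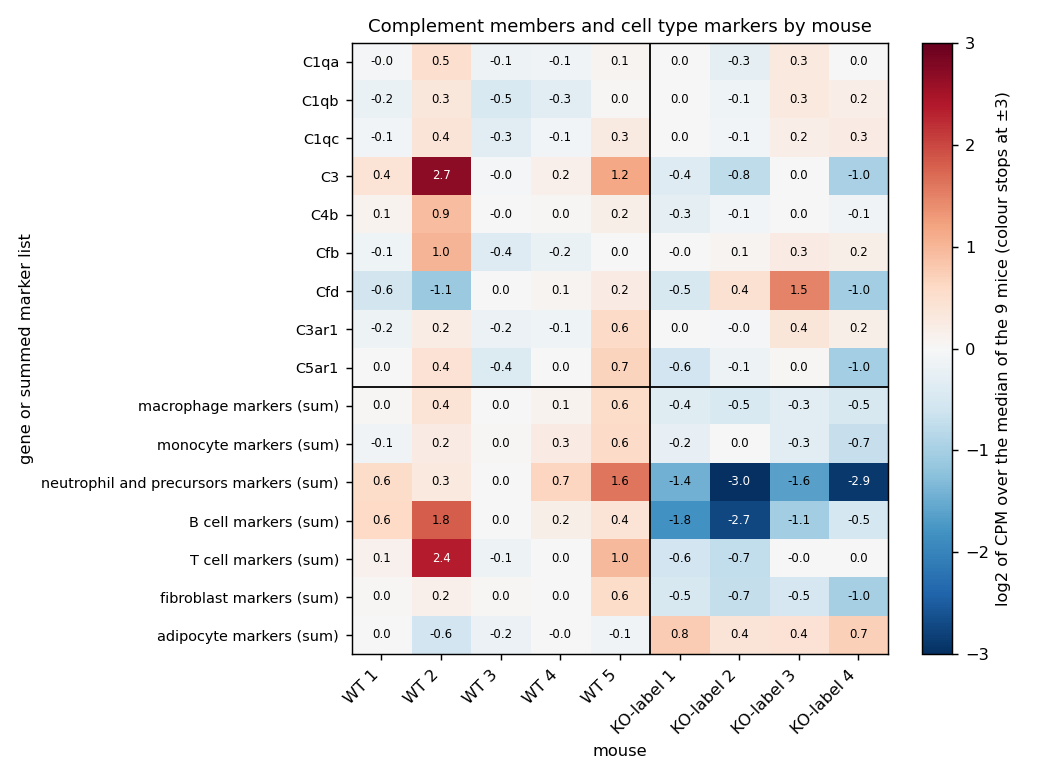
log2 of CPM over the median of the 9 mice for the 9 complement genes (above the horizontal line) and for summed cell type markers (below it), 1 column a mouse, with WT to the left of the vertical line and libraries labelled FcγRIIB-/- (KO-label) to the right; red is above and blue below the median, and colours stop at 3. WT replicate 2 is at 2.7 for C3 and at 2.4 for T cell markers, and the C1q rows stay between -0.46 and 0.50 in every mouse.

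Among 12896 candidate genes outside the complement list, whose mean log2 CPM was 2 or more, the genes closest to the mean of the C1q genes by Pearson correlation after the genotype means were removed were Ptprc, the common leukocyte antigen (r = 0.991), Hcls1 (r = 0.980) and Fyb (r = 0.978), all expressed in blood cells. For C3 they were Snx20, Pon3 and Apobec3 (r from 0.964 to 0.983). For C4b they were Shisa5, Igkv5-43 and Igkc (r from 0.967 to 0.992), and for Cfb Shisa5, Igkv5-43 and Snx20 (r from 0.969 to 0.986). Without WT replicates 2 and 3, the 2 mice farthest from the median, r of Igkv5-43 was 0.818 with C4b and 0.761 with Cfb. That of Igkc with C4b was 0.770, and that of Shisa5 was 0.944 with C4b and 0.907 with Cfb. The place of these immunoglobulin light chain genes thus leaned in part on those mice. For Cfd the closest genes were Hspa1a, Mat2b and Poc5 (r from 0.966 to 0.971), for C3ar1 Igfbp7, Ostf1 and Tlr13 (r from 0.960 to 0.977), and for C5ar1 Gspt1, Il1rap and Arcn1 (r from 0.971 to 0.985). These genes are the highest of many over 9 mice. Unlike the C1q genes, Ptprc, Hcls1 and Fyb were lower in the labelled mice. The log2 fold changes were -1.16 for Ptprc (adjusted p = 0.0110), -0.92 for Hcls1 (adjusted p = 0.0120) and -0.68 for Fyb (adjusted p = 0.0289).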

How the data were processed

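Poly(A) RNA of 9 mandibles was sequenced by the authors as 75-base single-end reads from a directional kit. Trimming (Trim Galore), alignment to mm10 (HISAT 02.1.0) and counting per gene (featureCounts) were done by the authors, and the deposited values are raw counts, not normalized. The annotation, the strand setting and the handling of reads matching several genes are not given in the sources used here. 1 further column of per-sample values matched no sample label and was not used. Genotype and replicate number were taken from the sample titles.

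The counts were analysed with R 4.3.3 and edgeR 4.0.16 (filterByExpr with a minimum count of 10, TMM, quasi-likelihood test of genotype without covariate, Benjamini-Hochberg adjustment over all tested genes, 0.05). Each standard error is the size of the log2 fold change divided by the root of its F statistic. A prior count of 2 was added for log2 CPM. DESeq2 1.42.0 was an alternative, and the fits were tested on simulated counts. Exon lengths are unions of GENCODE M21 exons, coordinates and promoters those of RefSeq for GRCm38.p6. Other alternatives were scaling, filters, a stricter threshold, a replicate block and leaving out each mouse. Genes with few counts, such as Cfd, carry counting error besides the spread between mice. No pair of libraries within a genotype agreed within sampling noise (the lowest chi-square per degree of freedom was 12.5).

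The 9 members, the complement list and the marker lists (macrophage, monocyte, neutrophil, B and T cell, erythroid, adipocyte, fibroblast, bone, osteoclast, tooth, muscle, epithelium, endothelium and hepatocyte) were chosen with earlier results of these data known. Genes named are the members, genes of these lists, Fcgr2b, near copies of members, and the 3 genes most correlated with each member or with C1q. Of the lists not described with a result, 7 of 7 erythroid, 6 of 7 osteoclast, 6 of 8 epithelial, 2 of 8 bone and 0 of 5 endothelial genes were lower, and 1 epithelial gene was higher. Over all genes tested 19.3% were lower and 14% higher. Some genes of the complement list enter its counts and are not reported here by name.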

Additional observations from a re-analysis of the deposited data

Results flagged for a closer look

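For 24 complement genes, the values of each group were examined in CPM, 48 sets in all, and 6 held a mouse far from the others of its group. On the log2 scale 4 did. A single set of independent normal values passes the limit about 1 time in 20. The sets here share the same mice and their genes are correlated, so 6 of 48 cannot be read against that rate. WT replicate 2 stood apart in 4 of the 6, with 326 CPM of C3 against 49.2 to 115 CPM in the other WT mice, 139 CPM of C1ra against 84.6 to 90.5 CPM, 74.2 CPM of C4b against 39.0 to 44.4 CPM, and 17.2 CPM of Cfb against 6.44 to 8.43 CPM. WT replicate 5 stood apart in Fcna, with 10.9 CPM against 3.33 to 4.49 CPM, and labelled replicate 1 in Fcnb, with 1.51 CPM against 0.0924 to 0.304 CPM.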

How the results depend on the processing

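The direction and call of C1qb, C4b and C5ar1 held under all 17 alternatives. C3 was lower in all of them, at log2 fold changes from -1.95 to -0.97 with a mouse left out, but its call was lost in 5: at a threshold of 0.01 (-1.75), in the replicate block (-1.26, adjusted p = 0.110) and without labelled replicate 1, 2 or 4. Members called as lower were then 0 at 0.01 and in the block, and 0 to 1 with a mouse left out. The signs of other members, none of them called, turned in places. With library totals alone C1qc was at -0.033 and C3ar1 at -0.036, and in the block Cfb was at 0.063. With a mouse left out, C1qa ranged from -0.16 to 0.085, C1qc from -0.022 to 0.15, Cfb from -0.13 to 0.31, Cfd from -0.029 to 0.89 and C3ar1 from -0.052 to 0.20. Over all genes, library totals alone gave 1309 higher, and the threshold of 0.01 gave 869 higher and 1763 lower, with 2 higher and 6 lower in the complement list. Per kilobase, C1qa took 41.4% in WT and 37.8% in the labelled mice, C1qb 38.3% and 42.2%, and C1qc 20.3% and 20.1%. Apart from the threshold, whose construction gives fewer calls, the cause was not tested.

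Replicate numbers mark different animals, and deviations of mice that share a number correlated at 0.0969, 0.0276, -0.114 and -0.0739. With so few mice, such values cannot exclude that the numbers pair the mice. The block, which left out WT replicate 5, gave 1841 higher and 2209 lower genes, and also put Serping1, Susd4 and Adgre1 above 0.05. Low counts limit Cfd and the terminal pathway.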
